A study of Homo sapiens with 4 samples.

Results

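The lncRNAs described here carry names built from a nearby cytokine, chemokine, tumour necrosis factor (TNF) or nuclear factor kappa B (NF-κB) pathway gene. They were taken from a table of long noncoding RNA (lncRNA) levels by name: lnc-CCL, lnc-CXCL, lnc-CXCR, lnc-CCR, lnc-TNF, lnc-NFKB, lnc-TRAF, lnc-BIRC, or lnc-IL followed by a digit. A mean level of at least 0.1 FPKM over the 4 libraries was also required. FPKM counts fragments per kilobase of transcript, scaled to the library's mapped fragments, and isoform values were summed per gene. Of 46902 lncRNA genes listed, 419 had such a name and 106 of these met the minimum. The names with no signal at all were many, since 175 of the 419 were listed at 0 in every library. Just inside the minimum lay lnc-IL37-5 and lnc-TNFRSF10B-2, with means of 0.108 and 0.109 FPKM. Just outside it lay lnc-TRAF3IP2-7 and lnc-CCR10-1, with means of 0.0981 and 0.0977 FPKM. The members were thus chosen by name and by measured level, so their levels are given as a description.

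Strand-specific libraries were made from MDA-MB-231, an established line of human breast cancer that lacks hormone receptors and HER2 amplification (triple-negative), and from MDA-MB-231-P3, a highly metastatic subline of it, with 2 libraries of each. The subline came out of 3 rounds in which cells were injected into the tail veins of mice, recovered from the lung tumours they formed and grown in culture again. Both lines were sampled as cultured cells, and no further treatment, host strain or clonal origin was given. Whether a line's 2 libraries had separate cultures behind them was not stated, so p-values measure only their spread, which may be technical. The table held lncRNAs only, so protein-coding markers of the line, and the cytokine genes themselves, were not measured here. Sequencing depth was unknown, and a value at or near 0 may come from a failed isoform estimate. With RNA from whole cultures, fewer cells making an RNA and less RNA per cell cannot be told apart.

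NF-κB is a family of transcription factors held in the cytoplasm by inhibitor proteins. Signals from TNF receptors, interleukin receptors and Toll-like receptors pass through TRAF adaptors and inhibitor of apoptosis proteins, the inhibitors are degraded, and the freed factor enters the nucleus and binds short DNA motifs called κB sites. Its targets include chemokines such as CXCL2, interleukins such as IL6, and its own inhibitors such as NFKBIA, and in triple-negative breast cancer cells this pathway is known for high basal activity. A name such as lnc-IL6-3 records a neighbouring gene and says nothing of function.

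The members were named for 73 neighbouring genes, of which 54 gave 1 member each and 19 gave 2 or more. IL17RA, the shared receptor chain of the interleukin 17 family, gave 7 members, and TNFAIP2, a TNF-induced gene, gave 4. By family, 49 members were named for interleukins or their receptors and 31 for TNF ligands, receptors and TNF-induced genes. A further 7 were named for chemokine ligands, 6 for genes named with NFKB and 6 for genes named with TRAF. The last group holds TRAFD1 and TRAF3IP2 besides the adaptors TRAF3 and TRAF5. Inhibitors of apoptosis named 4 members and chemokine receptors 3. The prefix rule also caught genes outside its theme, such as IL4I1, an amino acid oxidase first found as an interleukin 4-induced gene.

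To show the kind of DNA letters that lie beside these neighbours, promoters from RefSeq (GRCh38.p14) were searched in the 250 bases before the gene start for GGGA, any 2 bases and TTCC, a subset of the κB consensus, on both strands. Promoters were found for 60 of the 73 neighbours, 89 in all. Of the 89, 10 (11.2%) held a match, against 1.40% of all 35116 promoters. Among the neighbours of all 419 matched names, with or without a member, 16 of 191 promoters (8.38%) held a match. The names were picked from this pathway, so the excess over all promoters is not particular to the members. Windows of 30 bases from 6 of the 10 matched neighbours follow, 5′ to 3′ on the gene's strand, with the match in capitals. The matches of TNFAIP3, IL2RA, IL32 and CCL1 are not shown. The match of NFKBIA is on the opposite strand, so it reads as the reverse complement.
CXCL2 (chr4:74099254-74099283, minus strand): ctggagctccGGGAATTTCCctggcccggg
IL6 (chr7:22727117-22727146, plus strand): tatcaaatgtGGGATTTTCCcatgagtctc
NFKBIZ (chr3:101827757-101827786, plus strand): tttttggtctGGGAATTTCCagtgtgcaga
NFKBIA (chr14:35404811-35404840, minus strand): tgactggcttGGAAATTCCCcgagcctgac
NFKB1 (chr4:102501300-102501329, plus strand): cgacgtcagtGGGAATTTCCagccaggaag
TNFRSF9 (chr1:7940894-7940923, minus strand): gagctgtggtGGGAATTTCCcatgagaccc
CXCL2, NFKBIZ, NFKB1 and TNFRSF9 shared the same 10 letters at the match, as did NFKBIA when read on the opposite strand. These windows belong to the protein-coding neighbours. A match is a description of letters and not a site in use, and sequences of the lncRNAs themselves were not used here.

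Most members were low. The median of their mean levels was 0.331 FPKM, against 0.511 FPKM over all 12720 genes that met the same minimum of 0.1. Only 5 members reached a mean of 10 FPKM. One of them, lnc-TRAFD1-4, held 89.6% to 98.1% of the members' summed FPKM in each library. TRAFD1 encodes a TRAF-type zinc finger protein that dampens Toll-like receptor signalling. Its lncRNA had 1741 and 6419 FPKM in MDA-MB-231 and 2677 and 8618 FPKM in MDA-MB-231-P3. Replicate 2 was the higher library in both lines, and the lines overlapped. With this gene the members summed to 1943 and 6595 FPKM in the parent and to 2838 and 8781 FPKM in the subline. Without it they summed to 202 and 176 FPKM in the parent and to 161 and 163 FPKM in the subline. The sum over all lncRNAs was lower in the subline too, at 351135 and 372689 FPKM against 460282 and 500086 FPKM in the parent. The lower sum without lnc-TRAFD1-4 is thus not particular to the members, although the sum over all lncRNAs kept that gene.

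**Figure D1:**
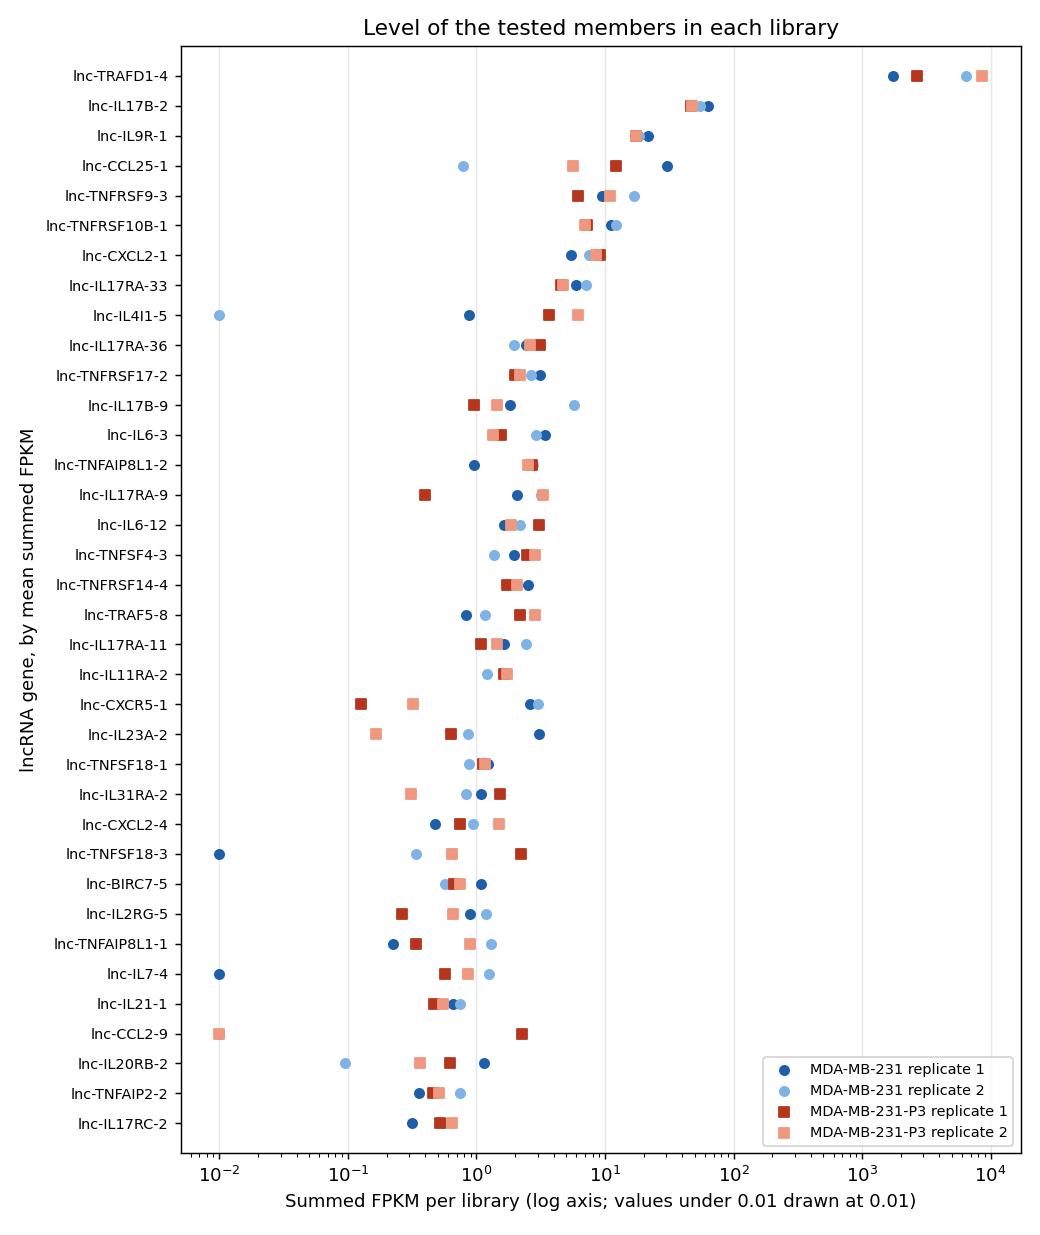
Summed FPKM of the 36 members with a mean of at least 0.5 FPKM, ordered by mean, with 1 point per library on a log axis (circles, MDA-MB-231; squares, MDA-MB-231-P3; values under 0.01 drawn at 0.01). The gene lnc-TRAFD1-4 lies between 1741 and 8618 FPKM, and for lnc-CXCR5-1 both subline squares lie below both parental circles.

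The comparison between the lines asked which of these lncRNAs differ after selection in the lung. In all, 36 members with a mean of at least 0.5 FPKM were tested with limma on log2(FPKM + 0.5), a scale that understates the change of low values. None of the 36 passed after Benjamini-Hochberg adjustment over all 6444 genes tested, of which 0.0621% were called (4 genes). The smallest limma adjusted p of a member was 0.219. Leaving out a single library moved the log2 difference by more than 1.5 times for 28 of the 36. At an unadjusted p under 0.05 there were 5 members (13.9% of 36), against 15.2% of all genes tested. Of the 5, 2 were higher in the subline (9.5% of all genes) and 3 lower (5.68%). The median log2 difference was -0.08 over the tested members, 16 positive and 20 negative, and 0.09 over all genes tested. Both subline libraries lay above both parental libraries for 7 members (19.4%) and below them for 12 (33.3%), against 28.9% above and 21.4% below over all genes tested. With quantile normalization the median of all genes moved to -0.03 and that of the members to -0.23. The 36 members then split into 15 positive and 21 negative.

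**Figure D2:**
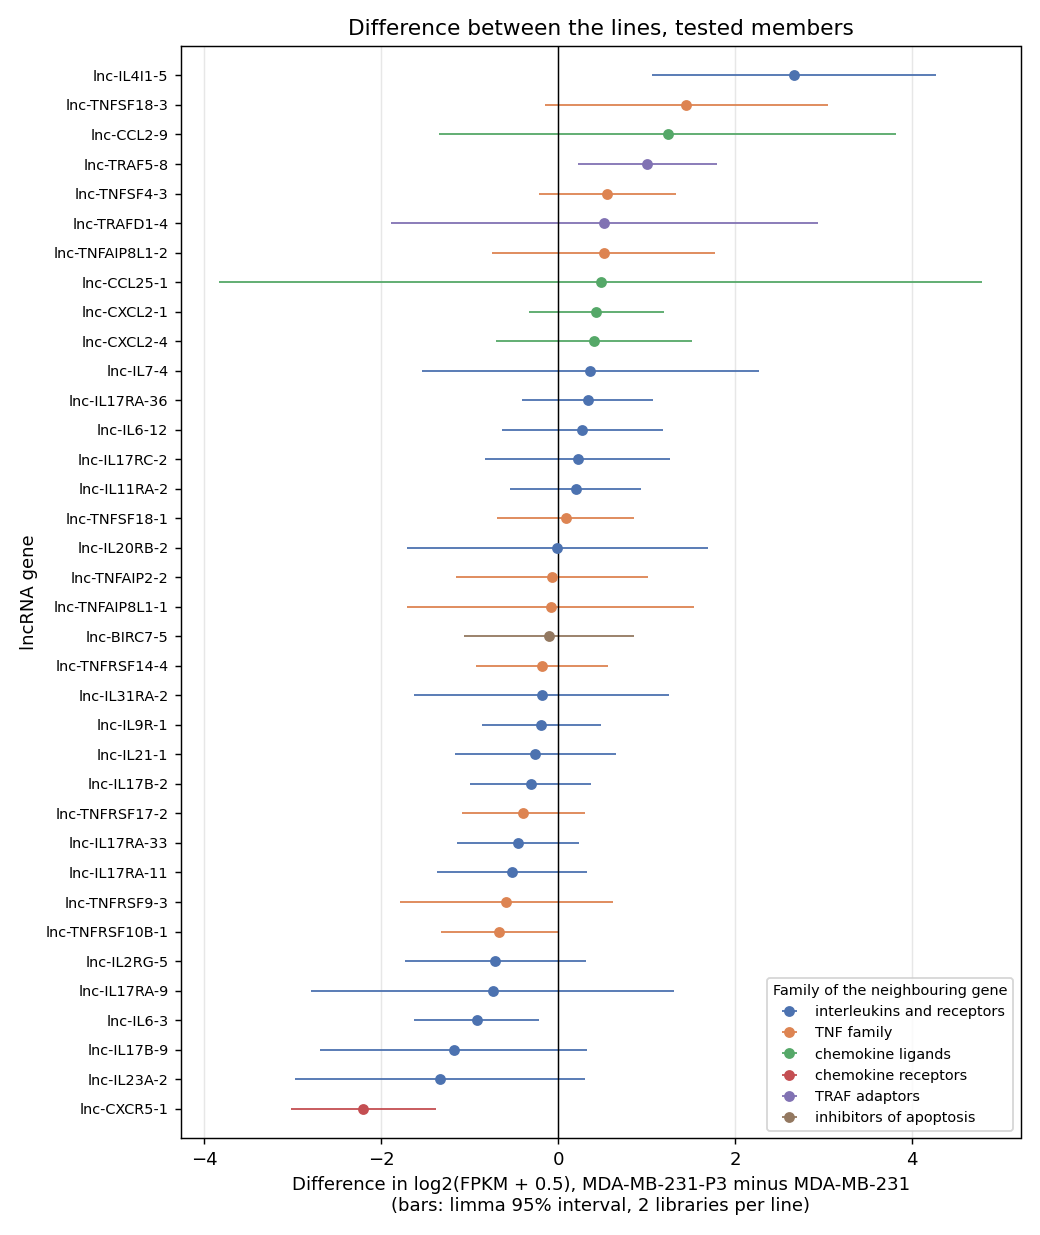
Difference in log2(FPKM + 0.5), MDA-MB-231-P3 minus MDA-MB-231, for the 36 tested members, with bars for the limma 95% interval and colours for the family of the neighbouring gene. The difference of lnc-CXCR5-1 (-2.20) is the lowest and that of lnc-IL4I1-5 (2.66) the highest, and the intervals of 31 members include 0.

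Among the chemokine ligands, the pair of lncRNAs named for CXCL2, a neutrophil-attracting chemokine, were present in every library. The more abundant one, lnc-CXCL2-1, had 5.48 and 7.49 FPKM in the parent and 9.15 and 8.49 FPKM in the subline. Both subline libraries lay above both parental ones, with means of 6.49 ± 1.43 and 8.82 ± 0.469 FPKM (SD, n = 2 each). Its log2 difference came to 0.43 (95% interval -0.33 to 1.19, limma adjusted p = 0.521). Its neighbour in name, lnc-CXCL2-4, had 0.476 and 0.948 FPKM in the parent and 0.745 and 1.49 FPKM in the subline, where the lines overlapped. CXCL2 itself is at chr4:74962757-74964913 (hg19, minus strand). Positions of the lncRNAs themselves were not used here.

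CCL25 encodes a chemokine of thymus and gut, and lnc-CCL25-1 had 30.2 and 0.788 FPKM in the parent and 12.2 and 5.60 FPKM in the subline. The parental libraries enclosed those of the subline, so the mean FPKM was lower in the subline (8.88 against 15.5) while the log2 difference was positive, at 0.48 (SE 1.61, limma adjusted p = 0.896). That sign turned to -1.81 without MDA-MB-231 replicate 2 and to -0.044 without MDA-MB-231-P3 replicate 1. The gap between the parental libraries lay in 1 isoform, lnc-CCL25-1:1, which had 29.5 FPKM in parental replicate 1, 0.00944 in parental replicate 2, and 11.4 and 5.10 FPKM in the subline. CCL2 encodes the main monocyte attractant, and lnc-CCL2-9 had 2.28 FPKM in MDA-MB-231-P3 replicate 1 and was near 0 in the other 3 libraries. The remaining ligand names were under the test minimum. CCL18 gave lnc-CCL18-1, with 0.339 and 0.505 FPKM in the parent and 0.176 and 0.180 FPKM in the subline, so the parental libraries lay above. CXCL12, the ligand of CXCR4, gave lnc-CXCL12-6, near 0 and 0.0323 FPKM in the parent and 0.378 and 0.0345 FPKM in the subline, where a single library was high. For lnc-CCL1-12 the values were 0.649 FPKM and near 0 in the parent and 0.369 and 0.439 FPKM in the subline, which overlapped. All 4 tested members of this family had a positive log2 difference, with a median of 0.46, against 54.7% positive over all genes tested. The signs were the same under quantile normalization and centring, although 3 of the 4 overlapped between the lines. They rested in part on single libraries. The sign of lnc-CCL25-1 turned as given above, and lnc-CCL2-9 was about 0 without MDA-MB-231-P3 replicate 1.

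Of the chemokine receptor names, lnc-CXCR5-1 had the smallest p of all members. CXCR5 guides B cells and follicular helper T cells towards the chemokine CXCL13. The lncRNA had 2.60 and 3.01 FPKM in MDA-MB-231 and 0.127 and 0.319 FPKM in MDA-MB-231-P3. The lines were well apart, with means of 2.80 ± 0.289 and 0.223 ± 0.136 FPKM (SD, n = 2 each), a 12.6-fold lower mean in the subline. The log2 difference was -2.20 (SE 0.31, 95% interval -3.02 to -1.38), which did not pass over all genes (limma adjusted p = 0.219). Over the other settings its log2 difference ranged from -3.23 to -1.64. CXCR5 itself is at chr11:118754601-118768496 (hg19, plus strand).

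Of the 13 isoforms of lnc-CXCR5-1, a single one carried this difference. The isoform lnc-CXCR5-1:7 held 97.1% and 98.7% of the gene's FPKM in the parental libraries, at 2.52 and 2.97 FPKM, and was near 0 in both subline libraries. In the subline the highest isoform was lnc-CXCR5-1:4, with 33.3% and 87.1% of a much smaller sum. In the limma test of isoform rows lnc-CXCR5-1:7 differed by -2.69 on the log2 scale (SE 0.31), with an adjusted p of 0.166 over 8432 isoforms, of which 0.0% were called. The other receptor names were low. For lnc-CXCR6-2 the lines overlapped, at 0.113 and 0.228 FPKM in the parent and 0.194 and 0.146 FPKM in the subline. CCRL2, an atypical receptor that binds but does not signal, gave lnc-CCRL2-1, with 0.192 and 0.229 FPKM in the parent and 0.170 and 0 FPKM in the subline.

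Interleukin and interleukin receptor names made up 18 of the 36 tested members, of which 12 had a negative and 6 a positive log2 difference, with a median of -0.22. None passed the test, 2 had an unadjusted p under 0.05, and the counts of signs were the same under quantile normalization and centring. The share of all genes tested with such a p was 15.2%. Both subline libraries lay below both parental ones for 9 of the 18 (50%) and above for 3 (16.7%), against 21.4% below and 28.9% above over all genes tested. Without lnc-IL4I1-5, whose neighbour is no interleukin, 17 tested members remained, 12 negative and 5 positive. Of these, 9 lay below, 2 lay above and 1 had an unadjusted limma p under 0.05. Of the 31 members of this family under the test minimum, 7 lay above, 5 lay below and 19 overlapped. Over all genes between 0.1 and 0.5 FPKM, 27.3% lay above and 13.0% below.

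IL6 encodes a cytokine of acute inflammation and a textbook NF-κB target, whose κB-like letters are shown above. The gene lnc-IL6-3 had 3.44 and 2.92 FPKM in the parent and 1.54 and 1.35 FPKM in the subline, so the lines did not overlap. The means were 3.18 ± 0.367 and 1.44 ± 0.138 FPKM (SD, n = 2 each), a 2.20-fold lower mean in the subline. Its log2 difference was -0.92 (SE 0.26, 95% interval -1.63 to -0.21, limma adjusted p = 0.282). The sum was spread over 28 isoforms, the most of any tested member, and the highest isoform held 18.5% to 24.5% of it. The other lncRNAs named for IL6 did not share 1 pattern. The gene lnc-IL6-12 overlapped between the lines, at 1.64 and 2.16 FPKM in the parent and 3.05 and 1.84 FPKM in the subline. For lnc-IL6-8 the parental libraries had 0.112 and 0.631 FPKM and those of the subline 0.0832 and 0.00315 FPKM. IL6 itself is at chr7:22765503-22771621 (hg19, plus strand).

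IL4I1 gave the largest positive difference. Its lncRNA lnc-IL4I1-5, listed as a single isoform, had 0.871 and 0 FPKM in the parent and 3.66 and 6.12 FPKM in the subline. Both subline libraries lay above both parental ones, and the mean was 11.2-fold higher with 1 parental library listed at 0. Its log2 difference came to 2.66 (SE 0.60, 95% interval 1.06 to 4.27, limma adjusted p = 0.268). It ranged from 1.94 to 3.95 over the other settings.

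The interleukin 17 family gave the most abundant member after lnc-TRAFD1-4. IL17B is a cytokine that signals through the receptor IL17RB, and lnc-IL17B-2 had 63.6 and 54.5 FPKM in the parent and 47.1 and 47.6 FPKM in the subline. The lines did not overlap, but the log2 difference was only -0.31 (95% interval -0.99 to 0.37, limma adjusted p = 0.565). For lnc-IL17B-9 the values were 1.82 and 5.76 FPKM in the parent and 0.964 and 1.44 FPKM in the subline, with the parental replicates further from each other than the nearest libraries of the lines. Its log2 difference was -1.18 (SE 0.56, limma adjusted p = 0.403), which became -0.46 without MDA-MB-231 replicate 2 and -1.90 without MDA-MB-231 replicate 1.

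Of the 7 members named for IL17RA, 4 were tested, and across the 7 the subline lay above in 3, below in 2 and overlapped in 2. Over all genes tested 28.9% lay above and 21.4% below, and between 0.1 and 0.5 FPKM 27.3% and 13.0%. The highest, lnc-IL17RA-33, had 5.99 and 7.13 FPKM in the parent and 4.52 and 4.74 FPKM in the subline. The log2 difference was -0.46 (95% interval -1.15 to 0.23, limma adjusted p = 0.461). Its isoforms were shared out differently in the lines. The isoform lnc-IL17RA-33:5 had 2.55 and 2.41 FPKM in the parent and was near 0 and at 0.366 FPKM in the subline, with a log2 difference of -2.18 (SE 0.40) that did not pass in the limma test of isoform rows (adjusted p = 0.266). The isoform lnc-IL17RA-33:6 had 1.45 and 2.36 FPKM in the parent and 3.16 and 2.38 FPKM in the subline. The top isoform was thus the fifth in both parental libraries and the sixth in both subline libraries. In MDA-MB-231 replicate 2 the fifth led only narrowly, at 2.41 against 2.36 FPKM. For lnc-IL17RA-11 the values were 1.63 and 2.45 FPKM in the parent and 1.08 and 1.44 FPKM in the subline, with the parental libraries higher. In the opposite direction, lnc-IL17RA-36 had 2.43 and 1.94 FPKM in the parent and 3.14 and 2.62 FPKM in the subline. One library stood apart for lnc-IL17RA-9, which had 2.05 and 3.18 FPKM in the parent, 0.395 FPKM in MDA-MB-231-P3 replicate 1 and 3.27 FPKM in replicate 2. IL17RA itself is at chr22:17565844-17596583 (hg19, plus strand).

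IL9R, the receptor of the mast cell and T cell cytokine IL9, gave lnc-IL9R-1, at 21.5 and 18.5 FPKM in the parent and 17.4 and 17.4 FPKM in the subline. Its log2 difference came to -0.19 (95% interval -0.87 to 0.48, limma adjusted p = 0.718). IL9R lies in a pseudoautosomal region with near-identical copies on X and Y, so the level is uncertain where reads were split between copies. IL11RA, the receptor chain for IL11, gave lnc-IL11RA-2, with 1.63 and 1.20 FPKM in the parent and 1.64 and 1.72 FPKM in the subline, which did not overlap by a narrow margin. IL2RG, the common gamma chain, gave lnc-IL2RG-5, with 0.898 and 1.19 FPKM in the parent and 0.265 and 0.654 FPKM in the subline (log2 difference -0.71, SE 0.38, limma adjusted p = 0.445). IL23A encodes a subunit of IL23. The lncRNA lnc-IL23A-2 had 3.08 and 0.853 FPKM in the parent and 0.639 and 0.166 FPKM in the subline, which did not overlap although each line was spread widely (log2 difference -1.34, SE 0.61, limma adjusted p = 0.388). That value was -0.63 without MDA-MB-231 replicate 1 and -2.04 without MDA-MB-231 replicate 2. Another lncRNA of the same neighbour, lnc-IL23A-4, lay the other way, at 0.217 and 0.241 FPKM in the parent and 0.417 and 0.719 FPKM in the subline.

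In the TNF family 10 members were tested, 4 with a positive and 6 with a negative log2 difference, and the median was -0.08. Under quantile normalization and under centring the split was 3 positive and 7 negative, since lnc-TNFSF18-1 turned from 0.08 to -0.046 and -0.0023. TNFRSF10B is a death receptor for the ligand TRAIL, and lnc-TNFRSF10B-1 had 11.1 and 12.1 FPKM in the parent and 7.24 and 7.05 FPKM in the subline. The lines were apart and each was tight, with means of 11.6 ± 0.751 and 7.14 ± 0.135 FPKM (SD, n = 2 each), and the mean was 1.63-fold lower in the subline. The log2 difference was -0.66 (SE 0.25, 95% interval -1.32 to -0.0024, limma adjusted p = 0.328). TNFRSF9 encodes the T cell costimulator 4-1BB, and lnc-TNFRSF9-3 had 9.40 and 16.8 FPKM in the parent and 6.18 and 10.9 FPKM in the subline, where the lines overlapped. TNFRSF17, the B cell maturation antigen, gave lnc-TNFRSF17-2, with 3.15 and 2.66 FPKM in the parent and 2.0 and 2.17 FPKM in the subline (log2 difference -0.39, 95% interval -1.09 to 0.31, limma adjusted p = 0.522). Low-level lncRNAs named for TNFRSF13B, another B cell receptor, also lay below in the subline. For lnc-TNFRSF13B-2 the values were 0.630 and 0.358 FPKM in the parent and 0.104 and 0.189 FPKM in the subline, and for lnc-TNFRSF13B-3 they were 0.578 and 0.274 against 0.0425 and 0.109 FPKM.

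Ligand names of the TNF family included a run of neighbours on chromosome 1. TNFSF18, the ligand of GITR, lies between 173008342 and 173020081, and TNFSF4, the ligand of OX40, lies between 173152870 and 173176470, both on the minus strand (hg19 sequence). Together they named 5 members, and for 4 of the 5 both subline libraries lay above both parental ones. This locus was singled out after its values were seen, and 28.9% of all genes tested and 27.3% of genes between 0.1 and 0.5 FPKM also lay above. The most abundant, lnc-TNFSF4-3, had 1.96 and 1.37 FPKM in the parent and 2.49 and 2.84 FPKM in the subline. Its log2 difference came to 0.56 (95% interval -0.22 to 1.33, limma adjusted p = 0.429). For lnc-TNFSF18-3 the parental libraries were near 0 and at 0.336 FPKM and those of the subline at 2.21 and 0.651 FPKM (log2 difference 1.45, SE 0.59, limma adjusted p = 0.351). Without MDA-MB-231-P3 replicate 1 it was 0.83. The gene lnc-TNFSF4-2 had 0 in both parental libraries, whereas the subline had 0.423 and 0.472 FPKM. For lnc-TNFSF18-2 the values were 0.267 and 0.391 FPKM in the parent and 0.401 and 0.50 FPKM in the subline, with the nearest libraries of the lines almost equal. The remaining one, lnc-TNFSF18-1, overlapped, at 1.23 and 0.876 FPKM in the parent and 1.11 and 1.16 FPKM in the subline.

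TNFAIP2 named 4 members, of which 2 were seen in a single library. The gene lnc-TNFAIP2-1 had 0 in both parental libraries, whereas the subline had 0.728 and 1.02 FPKM. By contrast lnc-TNFAIP2-3 had 0.828 FPKM in MDA-MB-231 replicate 1 and lnc-TNFAIP2-7 had 1.60 FPKM in MDA-MB-231-P3 replicate 1, each being near 0 in the other 3 libraries. The tested one, lnc-TNFAIP2-2, overlapped, at 0.355 and 0.739 FPKM in the parent and 0.455 and 0.507 FPKM in the subline. TNFAIP3 encodes the ubiquitin-editing enzyme A20, a brake on NF-κB, and lnc-TNFAIP3-12 also overlapped, at 0.311 and 0.424 FPKM in the parent and 0.242 and 0.471 FPKM in the subline.

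**Figure D3:**
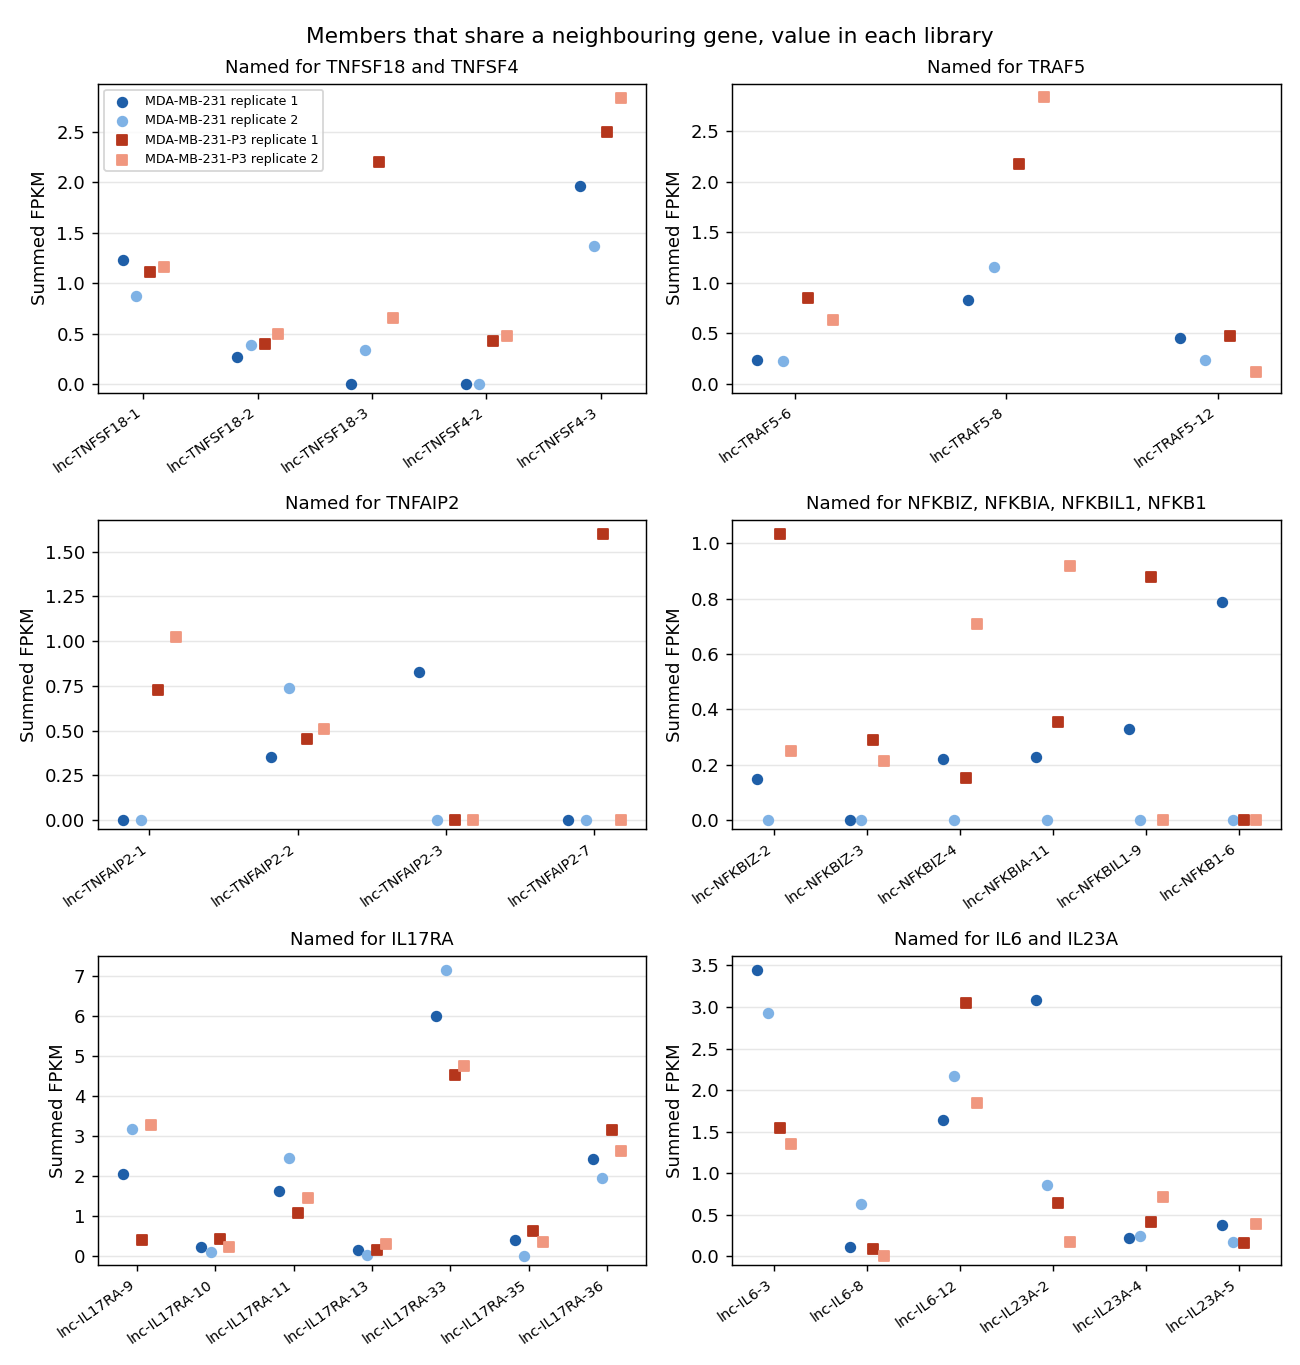
Summed FPKM in each library for members that share a neighbouring gene or are named for the NF-κB genes (circles, MDA-MB-231; squares, MDA-MB-231-P3; linear axes that differ between panels). For lnc-TRAF5-8 both squares (2.18 and 2.84 FPKM) lie above both circles, and in the NF-κB panel every pale circle, MDA-MB-231 replicate 2, is at 0.

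TRAF5 is an adaptor that links TNF receptors such as CD40 and OX40 to NF-κB, and it named 3 members. The gene lnc-TRAF5-8 had 0.835 and 1.16 FPKM in the parent and 2.18 and 2.84 FPKM in the subline. The lines did not overlap, the means were 0.996 ± 0.227 and 2.51 ± 0.463 FPKM (SD, n = 2 each), and the subline mean was 2.52-fold higher. The log2 difference was 1.01 (SE 0.29, 95% interval 0.22 to 1.80, limma adjusted p = 0.284). Under the test minimum, lnc-TRAF5-6 had 0.234 and 0.231 FPKM in the parent and 0.850 and 0.637 FPKM in the subline, also apart. The lnc-TRAF5-6:12 isoform held 73.4% to 95.1% of it in the 4 libraries. The third, lnc-TRAF5-12, overlapped, at 0.451 and 0.242 FPKM in the parent and 0.473 and 0.119 FPKM in the subline. TRAF5 itself is at chr1:211499957-211548288 (hg19, plus strand). TRAF3 restrains the noncanonical NF-κB pathway, and its lnc-TRAF3-2 lay below in the subline, at 0.0446 and 0.142 FPKM against 0.508 and 0.265 FPKM.

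The members named with NFKB were all low. Of 21 lncRNAs named with NFKB, 6 met the minimum of 0.1 FPKM and 0 that of 0.5, so none was tested, and all 6 were listed at 0 in MDA-MB-231 replicate 2. In that library 20 of the 106 members were near 0 (under 0.01 FPKM), and 16, 11 and 12 were in the other 3. NFKBIZ encodes a nuclear IκB protein that is needed for secondary NF-κB targets, and it named 3 members. The gene lnc-NFKBIZ-2 had 0.149 and 0 FPKM in the parent and 1.03 and 0.251 FPKM in the subline, and lnc-NFKBIZ-3 had 0 and 0 against 0.289 and 0.215 FPKM. Both subline libraries lay above both parental ones for these, but they overlapped for lnc-NFKBIZ-4, at 0.221 and 0 FPKM against 0.153 and 0.710 FPKM. NFKBIA encodes the inhibitor IκBα, and lnc-NFKBIA-11 had 0.227 and 0 FPKM in the parent and 0.355 and 0.918 FPKM in the subline. NFKBIL1, a gene of the major histocompatibility region, gave lnc-NFKBIL1-9, which was present in replicate 1 of each line (0.330 and 0.880 FPKM) and at or near 0 in replicate 2 of each. The subunit gene NFKB1 gave lnc-NFKB1-6, seen in MDA-MB-231 replicate 1 alone. With values this low, and with a parental library at 0 in each case, a difference between the lines was not shown for these names.

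Inhibitors of apoptosis gave 4 members, whose lines overlapped in each case. BIRC7 encodes livin, and lnc-BIRC7-5 had 1.08 and 0.568 FPKM in the parent and 0.667 and 0.749 FPKM in the subline (log2 difference -0.10, 95% interval -1.06 to 0.85, limma adjusted p = 0.898), which turned to 0.18 without MDA-MB-231 replicate 1. BIRC2 encodes an inhibitor of apoptosis that ubiquitinates TNF receptor complexes, and lnc-BIRC2-1 was seen in 1 library alone, at 0.446 FPKM in MDA-MB-231 replicate 1. For lnc-BIRC8-4 that 1 library was MDA-MB-231-P3 replicate 2, at 0.848 FPKM.

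The 70 members between 0.1 and 0.5 FPKM were not tested at the main minimum. Both subline libraries lay above both parental ones for 20 of them (28.6%) and below for 13 (18.6%), against 27.3% and 13.0% of all genes in this range. The genes lnc-TNFAIP2-1, lnc-TNFSF4-2 and lnc-NFKBIZ-3 were near 0 in both parental libraries alone, which is 2.83% of the 106 members against 3.58% of all genes with a mean of at least 0.1 FPKM. The genes lnc-IL10-1 and lnc-IL22RA2-2 were near 0 in both subline libraries alone, 1.89% of the members against 0.825% of all genes. IL10 encodes an anti-inflammatory cytokine, and lnc-IL10-1 had 0.785 and 0.432 FPKM in the parent. IL22RA2 encodes a soluble decoy for IL22, and lnc-IL22RA2-2 had 0.274 and 0.838 FPKM there. A further 7 members (6.60%) were above 0.01 FPKM in 1 library alone, against 6.72% of all genes. When the minimum was lowered to 0.1 so that all 106 members were tested, limma called 0 members and 0.0% of the 12720 genes, and 10 members (9.43%) had an unadjusted p under 0.05, against 12% of all genes.

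Differences between replicates and between the lines are given here on unlike measures. The first compare single libraries and the second means of 2, which vary less, so their sizes cannot be set directly against each other. Over the tested members, the median absolute log2 difference was 0.38 between the parental libraries, 0.31 between the subline libraries and 0.44 between the means of the lines. Over all genes tested the same medians were 0.45, 0.38 and 0.51. Each of the tested members' medians was below that of all genes tested. For the 70 members between 0.1 and 0.5 FPKM this did not hold. Their medians, in the same order, were 0.38, 0.26 and 0.37, against 0.27, 0.29 and 0.32 over all genes in this range.

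Isoform make-up also varied between replicates. Of the 36 tested members, 19 were listed with a single isoform and 17 with more than 1. Of those 17, the same isoform was the highest in all 4 libraries for 4 members. For 13 it differed between libraries, and in 2 of these the 2 libraries of each line shared a top isoform that differed between the lines. These were lnc-CXCR5-1 and lnc-IL17RA-33, the latter by a narrow margin in MDA-MB-231 replicate 2. Elsewhere the top isoform changed within a line, as in lnc-TNFRSF10B-1, where isoform 3 held 50.3% and 51.8% in replicate 1 of the parent and subline and isoform 1 held 48.5% and 45.0% in replicate 2. In lnc-TNFSF4-3 the isoform lnc-TNFSF4-3:3 had 0.223 FPKM and near 0 in the parent and 0.757 and 1.04 FPKM in the subline. Of the 41 member isoforms tested, limma called 0, and 4 had an unadjusted p under 0.05 (9.76%), against 13.3% of all isoforms.

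**Figure D4:**
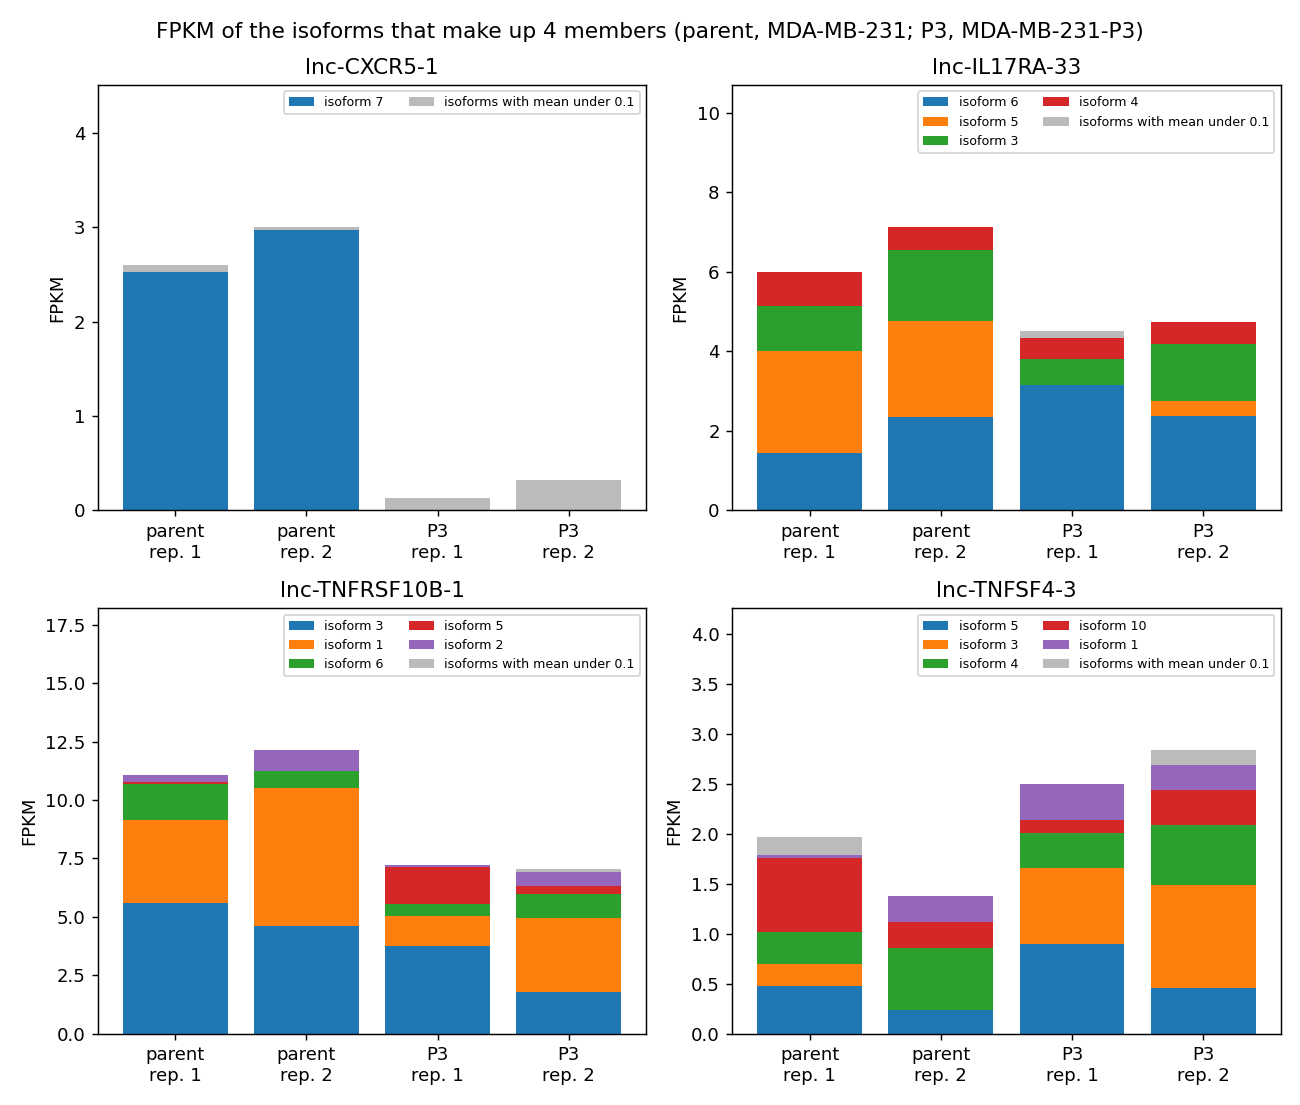
FPKM of each isoform stacked for 4 members in the 4 libraries (parent, MDA-MB-231; P3, MDA-MB-231-P3), with isoforms of mean FPKM under 0.1 in grey. Isoform 7 makes up nearly all of lnc-CXCR5-1 in the parent and is near 0 in the subline, and isoform 5 of lnc-IL17RA-33 has 2.55 and 2.41 FPKM in the parent and near 0 and 0.366 FPKM in the subline.

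Other lncRNAs named for genes of the same pathways, from a list of 75 symbols that the name rule did not use, gave 46 genes with a mean of at least 0.1 FPKM, of which 19 were tested. None was called by limma, and 2 of the 19 had an unadjusted p under 0.05, both higher in the subline, against 15.2% of all genes tested (9.5% higher). The signs split 12 positive to 7 negative (median 0.07), or 63.2% positive against 54.7% of all genes. The 2 were near 0 in the parent. The gene lnc-XCL2-3, named for a lymphocyte-attracting chemokine, had 2.06 and 2.78 FPKM in the subline (log2 difference 2.53, SE 0.33, limma adjusted p = 0.215). The gene lnc-IRAK3-4, named for an inhibitory kinase of interleukin 1 receptor signalling, had 1.85 and 2.09 FPKM in the subline (log2 difference 2.30, SE 0.33, limma adjusted p = 0.219). The tested names of the NF-κB subunit gene REL included lnc-REL-5, at 4.24 FPKM in MDA-MB-231 replicate 2 and 0 elsewhere, and lnc-REL-4, at 2.13 FPKM in MDA-MB-231-P3 replicate 1 and 0 elsewhere. The gene lnc-REL-6 was present in every library, at 0.927 and 0.459 FPKM in the parent and 1.31 and 0.738 FPKM in the subline, and overlapped.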

How the data were processed

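Per the labels' protocols, the authors aligned strand-specific paired-end reads to hg19 with HISAT2 and normalized them to FPKM. StringTie is also named in the submitters' processing notes. Tool versions and the lncRNA annotation are not stated there. The protocol speaks of mRNA fractions and the labels of total RNA. The deposited values are FPKM per isoform, equal in the series table and the per-sample files.

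Isoform values were summed per gene. For genes with a mean of at least 0.5 FPKM, limma 3.58.1 (R 4.3.3) compared the lines on log2(FPKM + 0.5), as subline minus parent, in a two-sided moderated test with a mean-variance trend and no block, with Benjamini-Hochberg adjustment over all 6444 genes and a threshold of 0.05, after a check on simulated data. Summaries and plots used Python 3.11.15, pandas 2.3.3, numpy 2.4.6 and matplotlib 3.10.9. A value under 0.01 FPKM is called near 0. Neighbours were placed with GENCODE release 44 lifted to GRCh37, which held 72 of the 73 symbols. Promoter letters came from RefSeq (GRCh38.p14).

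The members and lists were chosen with earlier results of these data known. The rule for named genes took called members, the 12 of highest mean, up to 7 of largest difference per direction without overlap, names with NFKB, CXCL or CCL, and 2 genes on each side of the minimum. Other members, the pathway genes and the locus on chromosome 1 were named after their values were seen. Alternatives were other pseudocounts and minimums, quantile normalization, centring, no trend, the replicate number as a block, isoform rows, and leaving out each library.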

Additional observations from a re-analysis of the deposited data

How the results depend on the processing

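No tested member was called in any other setting that kept all 4 libraries. In those settings the smallest limma adjusted p of a member was 0.209 on summed genes (no trend). Over isoform rows it was 0.166. The count of all genes called, 4, fell to 0 when the pseudocount was 1, when genes down to 0.1 FPKM or all genes entered, with no trend, and over isoform rows. It was 2 after quantile normalization, and leaving out each library in turn gave 0 to 0. The cause was not tested. A fit without 1 library leaves a lone library that is assumed to vary like the other line. With the replicate number as a block, 0 genes and 0 members were called. Across genes, the differences between replicates of the lines correlated with r = 0.0777. Whether libraries with the same replicate number were handled together was not stated and was not tested. The members' median log2 difference, -0.08, was -0.19 to -0.04 without single libraries, -0.16 with centring, -0.19 with a minimum of 1 FPKM, and 0.03 over all 106 members at a minimum of 0.1 FPKM. Over all 36 tested members and the settings on summed genes, 19 of 456 values turned sign, in 12 members. In 10 of these members that happened only when a library was left out. The other two were lnc-IL20RB-2, with a main value of -0.0081 and 0.23 with a pseudocount of 0.1, and lnc-TNFSF18-1, from 0.08 to -0.046 with quantile normalization, -0.0023 with centring and -0.083 without MDA-MB-231 replicate 2. Among the 23 tested members that the naming rule took, the turns were in lnc-TRAFD1-4, from 0.52 to -0.42 without MDA-MB-231 replicate 1 and -0.32 without MDA-MB-231-P3 replicate 2 (range -0.42 to 1.46), and lnc-CCL25-1, from 0.48 to -1.81 and -0.044 (range -1.81 to 2.77). The difference of lnc-CCL2-9 was 2.47 without MDA-MB-231-P3 replicate 2 and about 0 without MDA-MB-231-P3 replicate 1. Read depth is unknown, so counting error at low FPKM could not be given.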
